A study of Mus musculus with 8 samples.

Results

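The replication-dependent histone genes supply the histone proteins that package newly copied DNA, and their RNA was compared here between treated and control mouse tumors. The set holds every protein-coding gene of the count table whose name starts with Hist1h, Hist2h, Hist3h or Hist4h, which is 67 of 54532 genes. Of these, 6 encode the linker histone H1, 18 encode H2A, 18 encode H2B, 12 encode H3 and 13 encode H4. The tumors were grown under the skin of female BALB/cJ mice, injected at 6 weeks of age with 4T1-FLuc, a mouse triple-negative breast cancer line that carries firefly luciferase. Control mice (n = 4) received saline, and treated mice (n = 4) received 5 intravenous doses of mAb-DXd/IMQ, each of 16 mg/kg, 4 days apart. This conjugate is an antibody directed at CD276, joined to a topoisomerase I inhibitor (DXd) and to an imidazoquinoline agonist of Toll-like receptors (IMQ). The sample titles call the control saline whereas the treatment label calls it PBS, and the labels write the conjugate as HumCD276-Dxd/IMQ. The labels describe the tumors as xenografted, and the study's methods describe a syngeneic model in mice with an intact immune system, so each library holds RNA of tumor cells and of the host cells among them. Total counts ranged from 45019927 to 69582375 for saline and from 34591912 to 51625237 for mAb-DXd/IMQ.

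Most mammalian mRNAs end in a poly(A) tail, but replication-dependent histone mRNAs as a rule do not. Their 3' end is a short stem-loop that is bound by SLBP, and the mRNAs accumulate while DNA is copied and are degraded when copying stops. The genes lie in clusters with many copies of each type, and NPAT, a substrate of cyclin E and CDK2, activates their transcription. H2A, H2B, H3 and H4 form the nucleosome core, around which DNA is wrapped, and H1 binds the DNA between cores. The libraries were made from RNA retained on poly-T beads. The values below therefore measure the histone RNA that those beads retained, and whether it carried a tail was not tested.

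In GRCm38 coordinates, 54 members lay on chromosome 13 (the Hist1h genes), 10 on chromosome 3 (Hist2h), 2 on chromosome 11 (Hist3h) and 1 on chromosome 6 (Hist4h4). The stem-loop was searched as the 16-letter pattern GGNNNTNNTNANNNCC whose first 6 bases can pair with its last 6, on the sense strand, in the first 100 bases after the stop codon of each GENCODE M21 transcript. It was present in 46 of the 52 members that have at least 16 annotated bases there, and in 7 of 21018 other protein-coding genes (0.0333%). The commonest form was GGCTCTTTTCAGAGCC, found in 26 members, and H4 genes most often had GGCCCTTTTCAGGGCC (7 genes). The lines below show the stem-loop in capitals with 5 bases on each side, for members of each type that are described further on.
Hist1h1c: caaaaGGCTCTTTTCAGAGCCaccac
Hist1h2ae: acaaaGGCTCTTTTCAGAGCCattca
Hist1h2be: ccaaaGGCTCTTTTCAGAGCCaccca
Hist1h3d: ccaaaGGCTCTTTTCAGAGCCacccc
Hist1h4i: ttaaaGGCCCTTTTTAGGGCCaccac
These stretches lie in the 3' UTR at chr13:23739507-23739532 and chr13:23576239-23576264 on the plus strand, and at chr13:23570663-23570688, chr13:23585526-23585551 and chr13:22040961-22040986 on the minus strand, in the order H1, H3, H2A, H2B, H4. In 23 members the annotated transcript ran at least 100 bases past the stem-loop, and in 22 members the letters AATAAA or ATTAAA, the usual poly(A) signals, stood after the stop codon. Hist1h2bc, an H2B gene that carries one of the results below, has a spliced annotated transcript with 2 exons that holds a poly(A) signal and no stem-loop in the searched window.

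RefSeq promoters (GRCm38.p6) were matched for 62 of the 67 members, and Hist1h2bc, Hist2h2be, Hist1h3a, Hist1h3f and Hist2h4 had no entry. In the 250 bases before the start, on either strand, TATAAA was in 46.8% of the 62, against 12.4% of all 32851 promoters. CCAAT was in 82.3% against 33.8%, and the octamer ATTTGCAT in 22.6% against 1.601%. The letters differed by type, since CCAAT was in all of the 6 H1, 18 H2A and 16 H2B promoters, in 8 of 10 H3 promoters and in 3 of 12 H4 promoters. The octamer was in 7 of 18 H2A and 7 of 16 H2B promoters and in 0 of those of H1, H3 and H4. The 150 bases before the start of 4 members are shown as examples from H1, H2A, H3 and H4, with the searched letters, on either strand, in capitals.
Hist1h1c: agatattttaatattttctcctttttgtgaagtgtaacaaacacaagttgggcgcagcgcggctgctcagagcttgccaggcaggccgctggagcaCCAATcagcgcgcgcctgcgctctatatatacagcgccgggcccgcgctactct
Hist1h2ae: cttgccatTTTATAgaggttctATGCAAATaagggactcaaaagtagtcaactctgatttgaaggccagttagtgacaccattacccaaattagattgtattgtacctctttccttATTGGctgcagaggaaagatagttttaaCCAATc
Hist1h3d: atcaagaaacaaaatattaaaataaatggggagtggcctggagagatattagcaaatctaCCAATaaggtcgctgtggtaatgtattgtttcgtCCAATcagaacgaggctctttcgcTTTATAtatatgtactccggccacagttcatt
Hist1h4k: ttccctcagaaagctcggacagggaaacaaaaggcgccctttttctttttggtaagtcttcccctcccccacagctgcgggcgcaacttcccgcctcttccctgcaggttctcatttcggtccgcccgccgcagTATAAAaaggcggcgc
They lie at chr13:23738657-23738806 and chr13:23575613-23575762 on the plus strand (H1, H3) and at chr13:23571221-23571370 and chr13:21750554-21750703 on the minus strand (H2A, H4). A match describes the letters and not a bound site.

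All members together took between 0.00585% and 0.0168% of a tumor's counts. Of the 67 members, 60 had at least 1 count, and 7 had none in any of the 8 tumors. These 7 were Hist2h2aa1, Hist2h2aa2, Hist2h2bb, Hist2h3b, Hist2h3c1 and the H2A and H2B pair Hist1h2aa and Hist1h2ba, which is known from testis. A count of 0 allows a level of up to 0.0439 to 0.0843 CPM (scaled by TMM), the value of 3 counts in the deepest and the shallowest tumor. For 5 of the 7, every 100-base window of the transcript also occurs in a transcript of another gene, so their reads may not be assignable to one gene. Levels between genes are compared per kilobase of gene length. Hist1h1c, a linker histone gene expressed in many cell types, had the highest mean over the 8 tumors, at 35.2 CPM per kb. The H2B gene Hist1h2bc followed at 10.03, then the H4 genes Hist1h4i at 7.86 and Hist1h4k at 3.60 CPM per kb. The highest members among H3 and H2A were Hist1h3i at 1.14 and Hist1h2ae at 1.14 CPM per kb.

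Summed over the 67 members without any filter, the level was 58.6, 83.2, 107 and 171 CPM in saline tumors 1 to 4 and 111, 94.2, 86.1 and 96.7 in treated ones 1 to 4. Saline tumors 1 and 2 lay below all treated tumors, saline tumor 3 among them and saline tumor 4 above them. The means were 105 ± 48.3 CPM (SD, n = 4) and 97.1 ± 10.6 CPM (SD, n = 4), a log2 ratio of -0.11 that was 0.23 without saline tumor 4. Hist1h1c made up 60.6 ± 10.2% of the sum in saline tumors and 43.5 ± 4.35% in treated tumors (SD, n = 4). Without it, the sum over the other 66 members was 29.6, 34.98, 41.9 and 44.6 CPM in saline tumors and 57.1, 51.5, 51.2 and 58.6 in treated ones. Every treated tumor was then above every saline tumor, with means of 37.8 ± 6.80 and 54.6 ± 3.81 CPM (SD, n = 4) and a log2 ratio of 0.53. Hist1h2bc was the largest part of this sum, at 25.1% over all tumors. Without Hist1h2bc as well the groups overlapped, since saline tumor 4 was then above treated tumor 3. In bulk tumors, fewer cells with a given RNA and less of it per cell cannot be told apart. No p-value is given for sums, because the members were chosen with results of these data known.

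**Figure D1:**
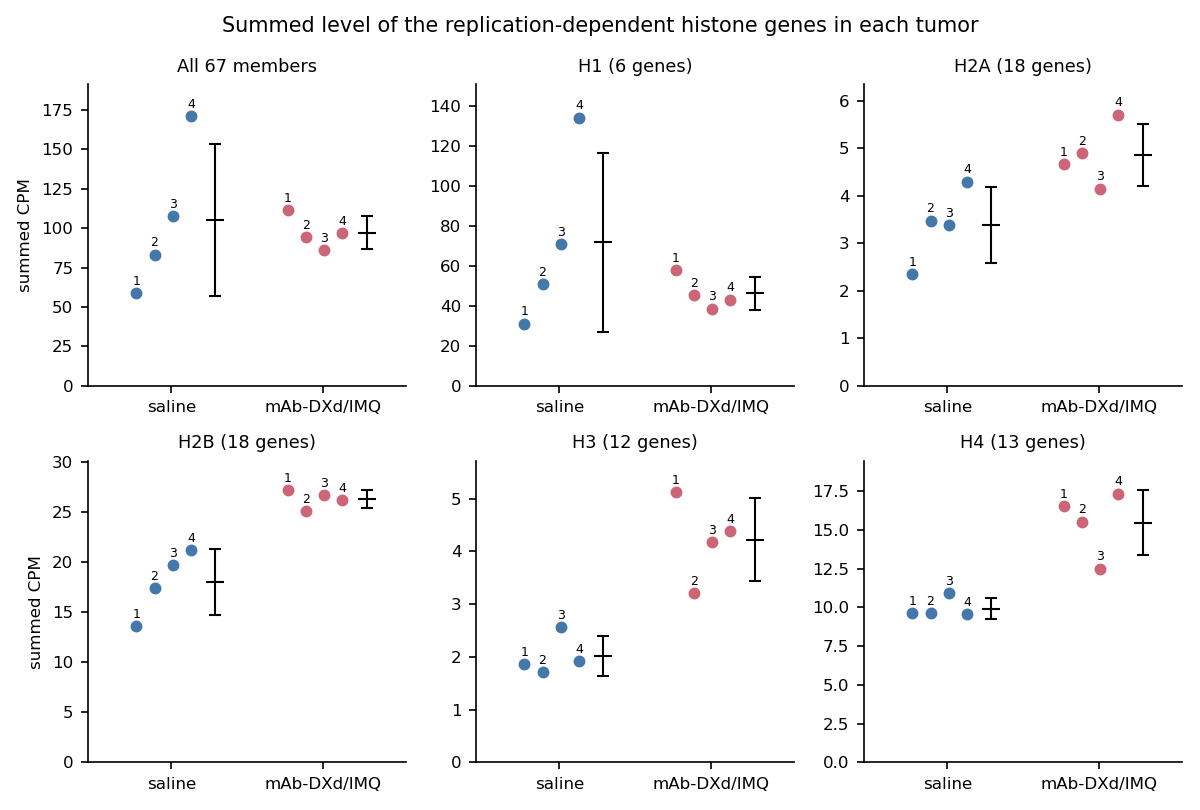
Summed TMM-scaled CPM (vertical axes, each panel with its own scale from 0) of all members and of each histone type, 1 point per tumor with its replicate number, and the mean ± SD of each group (n = 4) beside it. The groups are apart for H2B, H3 and H4, nearly apart for H2A, and overlap for H1, where saline tumor 4 reaches 134 CPM.

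**Figure D2:**
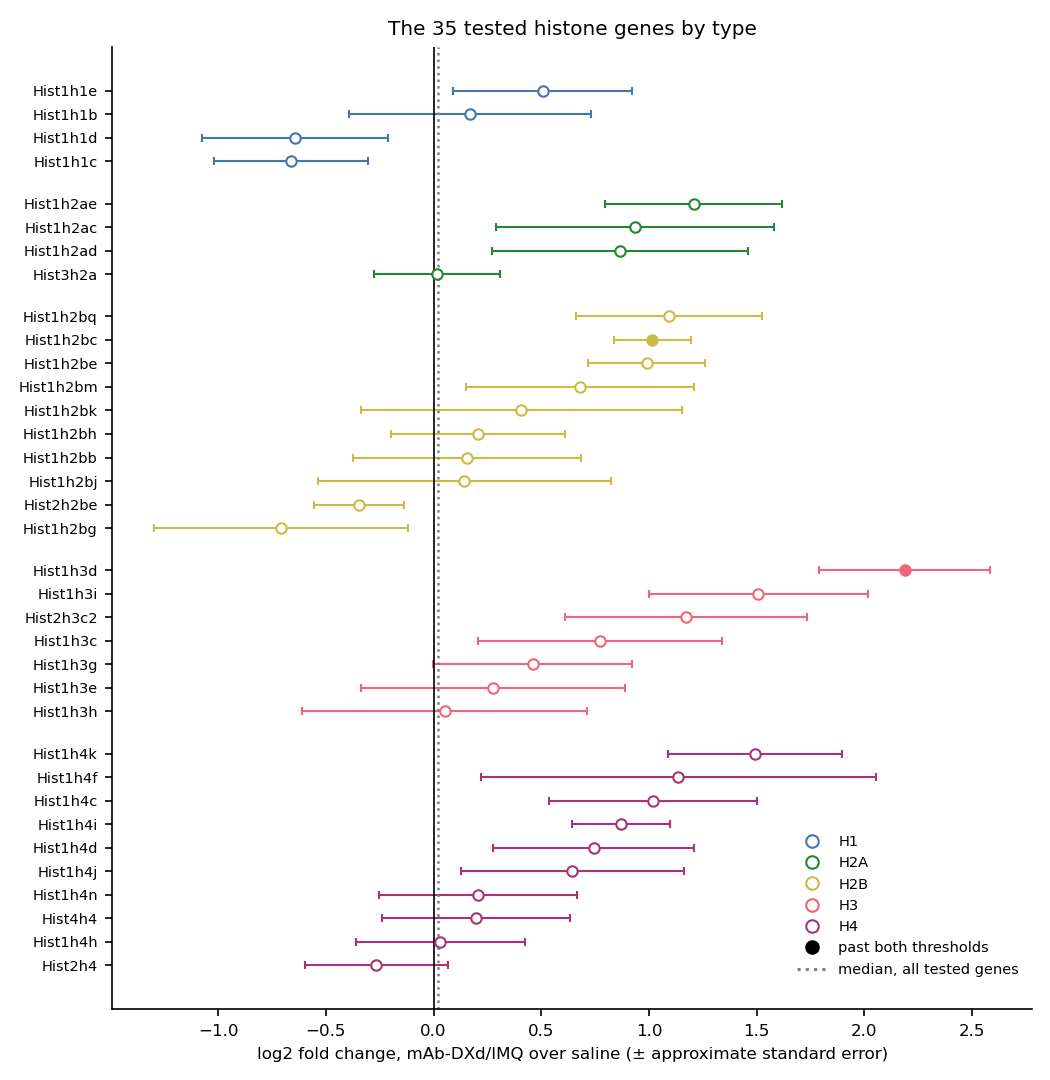
Log2 fold change (horizontal axis, mAb-DXd/IMQ over saline) with its approximate standard error for the 35 members that passed the count filter, colored by type. Filled points mark Hist1h2bc and Hist1h3d, the members past both thresholds, and the dotted line marks the median of all tested genes, 0.02.

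Of the 67 members, 35 passed the low-count filter: 4 of H1, 4 of H2A, 10 of H2B, 7 of H3 and 10 of H4. For 7 of the 35, the filter's level was reached in all 4 treated tumors but not in all 4 saline tumors, and the reverse held for 0, so the members that passed lean toward those high in treated tumors. Across the 18511 genes tested, 197 (1.06%) passed an FDR of 0.05 and an absolute log2 fold change of 0.58 in edgeR's quasi-likelihood test, 101 higher (0.546%) and 96 lower. Among the histone genes, 2 passed as higher, Hist1h2bc and Hist1h3d, and 0 as lower. At an unadjusted p under 0.05, 8 of the 35 were higher, which is 22.9% against 9.13% of all tested genes, and 0 were lower, against 9.79%. The groups did not overlap for 8 higher members and for 0 lower ones, where 5.97% and 7.10% of all tested genes had such groups. The log2 fold change was above 0 for 30 of the 35, against 52.6% of all tested genes, and its median was 0.51, against 0.02.

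Hist1h3d is one of the 7 members that reached the filter's level in all treated but not all saline tumors, and Hist1h2bc is not. Of the other 28 tested members, 1 passed as higher, 5 were higher at an unadjusted p under 0.05 (17.9%), 5 were higher without overlap and 23 were above 0. Their median log2 fold change was 0.24, against 0.51 with the 7 included. Over the 60 members with at least 1 count, taken without the low-count filter, 48 were above 0 and the median was 0.66. These include members with very few counts, and the values of all genes in this setting are not given here. With a stricter filter of 1 CPM in 4 tumors, which left 9 members, 4 were above 0 and the median was -0.25.

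Among the H1 genes, which encode the linker histones, the sum was 31.1, 51.0, 70.9 and 134 CPM in saline tumors and 58.0, 45.4, 38.5 and 43.1 in treated ones. The groups overlapped, with means of 71.8 ± 44.7 and 46.3 ± 8.31 CPM (SD, n = 4) and a log2 ratio of -0.63, which was -0.14 without saline tumor 4. Hist1h1c (ENSMUSG00000036181, chr13:23738808-23740367) had 29.0, 48.2, 65.5 and 126 CPM in saline tumors and 54.4, 42.7, 34.9 and 38.1 in treated ones. Saline tumor 4 was the highest of all, and saline tumor 1 was below every treated tumor. Its log2 fold change of -0.66 (standard error 0.36) did not pass (edgeR adjusted p = 0.345), and was -0.16 without saline tumor 4. Hist1h1d, another linker histone gene, had 1.196, 1.87, 3.37 and 5.98 CPM in saline tumors and 2.10, 1.58, 2.16 and 2.14 in treated ones. Its log2 fold change was -0.64 (standard error 0.43, edgeR adjusted p = 0.457), and -0.10 without saline tumor 4. The groups overlapped for both genes. Hist1h1b, a linker histone gene used by dividing cells, was at a log2 fold change of 0.17 (standard error 0.56, edgeR adjusted p = 0.907), a sign that turned under 5 of its 19 alternatives. Hist1h1e, a linker histone gene with the other sign, was at 0.51 (standard error 0.42, edgeR adjusted p = 0.549), named after its values were seen, and its groups overlapped. Hist1h1t, the testis form, had 4 counts in saline tumor 4 and none elsewhere, and Hist1h1a had 12 counts in saline tumor 4, 6 in treated tumor 4 and none elsewhere.

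Saline tumor 4 also held the most immunoglobulin RNA. Immunoglobulin gene segments summed to 11.6, 109, 25.7 and 332 CPM in saline tumors and to 18.7, 15.6, 18.5 and 8.91 CPM in treated tumors. Of these 268 segments, 160 were at 0 in all tumors, and Igkc was the most abundant. The order of the saline tumors was not the same for both, since saline tumor 3 came next for Hist1h1c and saline tumor 2 came next for immunoglobulin. The part of such cells in the H1 values was not tested.

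The H2A genes summed to 2.35, 3.48, 3.39 and 4.30 CPM in saline tumors and 4.66, 4.90, 4.15 and 5.71 in treated ones. The groups overlapped at saline tumor 4 and treated tumor 3. The means were 3.38 ± 0.799 and 4.86 ± 0.648 CPM (SD, n = 4), a log2 ratio of 0.52. Hist3h2a, the member with the largest share of this sum, had 1.12, 1.78, 1.81 and 2.40 CPM in saline tumors and 1.90, 1.95, 1.42 and 1.94 in treated ones, and the groups overlapped. Its log2 fold change was 0.02 (standard error 0.29, edgeR adjusted p = 0.984), with a sign that turned under 7 of its 20 alternatives, and it overlaps Trim17 on the same strand, whose count was 14.4% of its own. Hist1h2ae, the gene with an octamer in the printed promoter, had 0.547, 0.429, 0.555 and 0.395 CPM in saline tumors and 1.32, 0.664, 0.721 and 1.77 in treated ones. All 4 treated tumors were above all saline tumors, but the log2 fold change of 1.21 (standard error 0.41) did not pass (edgeR adjusted p = 0.147).

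The H2B genes, with the values of treated tumors close together, summed to 13.6, 17.4, 19.7 and 21.2 CPM in saline tumors and to 27.2, 25.1, 26.7 and 26.2 CPM in treated tumors. Every treated tumor was above every saline tumor. The means were 17.97 ± 3.29 and 26.3 ± 0.908 CPM (SD, n = 4), a log2 ratio of 0.55. Most of this rise was that of Hist1h2bc, whose mean went from 7.68 to 15.5 CPM. Without Hist1h2bc the groups overlapped. The rest of the sum was higher in saline tumors 3 and 4 than in treated tumors 1, 2 and 3. Hist1h2bc (ENSMUSG00000018102, chr13:23684199-23692908, plus strand) gave 52.4% of the sum and rose from 5.68, 8.49, 7.95 and 8.59 CPM in saline tumors to 17.5, 14.7, 16.7 and 13.2 CPM in treated tumors. The lowest treated tumor was well above the highest saline tumor. The log2 fold change was 1.02 (standard error 0.18, edgeR adjusted p = 0.0280), and it stayed between 0.90 and 1.09 in the 20 alternatives, with adjusted p between 7.79e-06 and 0.169. With 7 tumors, Hist1h2bc no longer passed without saline tumor 3 (adjusted p = 0.0836), saline tumor 4 (0.0920), or treated tumors 2 (0.0601), 3 (0.0558) or 4 (0.0640), by edgeR. It also did not pass after a correction for gene length (edgeR adjusted p = 0.0695).

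Hist1h2be, an H2B gene with the stem-loop shown above, had 1.44, 1.22, 1.31 and 1.40 CPM in saline tumors and 2.496, 1.93, 2.56 and 3.71 in treated ones. The groups were apart, and the log2 fold change of 0.99 (standard error 0.27) did not pass (edgeR adjusted p = 0.0885). Its annotated span overlaps that of the linker histone gene Hist1h1e on the same strand, and the count of Hist1h1e was 42.2% of its own, so the reads of both are uncertain. In the other direction, Hist2h2be had 3.85, 5.26, 5.79 and 5.25 CPM in saline tumors and 3.30, 4.52, 3.84 and 4.19 in treated ones. The groups overlapped, at a log2 fold change of -0.35 (standard error 0.21, edgeR adjusted p = 0.403). Hist1h2bg had 0.487, 0.609, 1.36 and 3.73 CPM in saline tumors and 0.681, 0.857, 0.939 and 1.35 in treated ones, so that saline tumor 4 was again the highest of all. Its log2 fold change was -0.71 (standard error 0.59, edgeR adjusted p = 0.554), and 0.22 without that tumor.

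The H3 genes summed to 1.87, 1.72, 2.56 and 1.92 CPM in saline tumors and 5.12, 3.21, 4.17 and 4.38 in treated ones. The groups were apart, with means of 2.01 ± 0.375 and 4.22 ± 0.785 CPM (SD, n = 4). The log2 ratio was 1.07, the highest of the 5 types. Without Hist1h3d the groups overlapped, since the rest of the sum was higher in saline tumor 3 than in treated tumors 2 and 3. Hist1h3d (ENSMUSG00000099583, chr13:23575763-23577011, plus strand) rose from 18, 13, 11 and 17 counts in saline tumors to 49, 50, 89 and 36 counts in treated tumors. In CPM these were 0.365, 0.293, 0.197 and 0.249 against 1.01, 1.07, 1.94 and 1.01. Every treated tumor was above every saline tumor, at low counts, and treated tumor 3 stood out as the highest. The log2 fold change was 2.19 (standard error 0.40, edgeR adjusted p = 0.0300), and it stayed between 1.90 and 2.35 in 19 alternatives, with adjusted p between 0.000104 and 0.144. Hist1h3d no longer passed without saline tumor 2 (adjusted p = 0.0621), 3 (0.0958) or 4 (0.114), or without treated tumors 2 (0.0617), 3 (0.0620) or 4 (0.0778), by edgeR. Hist1h3i had 0.365, 0.248, 0.125 and 0.234 CPM in saline tumors and 0.949, 0.471, 0.349 and 1.01 in treated ones. The groups overlapped by a single pair of tumors, and the log2 fold change of 1.51 (standard error 0.51) did not pass (edgeR adjusted p = 0.144).

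The H4 genes summed to 9.61, 9.61, 10.9 and 9.55 CPM in saline tumors and 16.5, 15.5, 12.5 and 17.3 in treated ones. The groups were apart, with means of 9.92 ± 0.659 and 15.5 ± 2.12 CPM (SD, n = 4) and a log2 ratio of 0.64. Hist1h4i (ENSMUSG00000060639, chr13:22040636-22041362), the gene with 45.0% of this sum, had 4.34, 3.99, 4.604 and 3.25 CPM in saline tumors and 10.004, 7.79, 5.96 and 5.79 in treated ones. The treated tumors were all above the saline tumors, and the log2 fold change of 0.87 (standard error 0.23) did not pass (edgeR adjusted p = 0.0790). Hist1h4k had 0.588, 0.406, 0.824 and 0.527 CPM in saline tumors and 0.887, 1.24, 2.07 and 2.45 in treated ones. The groups were apart by a narrow gap, and the log2 fold change of 1.49 (standard error 0.40) did not pass (edgeR adjusted p = 0.0843). Hist2h4, on chromosome 3, had 2.23, 1.49, 2.17 and 2.24 CPM in saline tumors and 0.908, 2.23, 1.40 and 2.25 in treated ones, with overlapping groups and a log2 fold change of -0.27 (standard error 0.33, edgeR adjusted p = 0.714). In DESeq2, 5 members passed both thresholds, all higher, where that method passed 787 of all tested genes (438 higher) against 197 (101 higher) in edgeR.

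**Figure D3:**
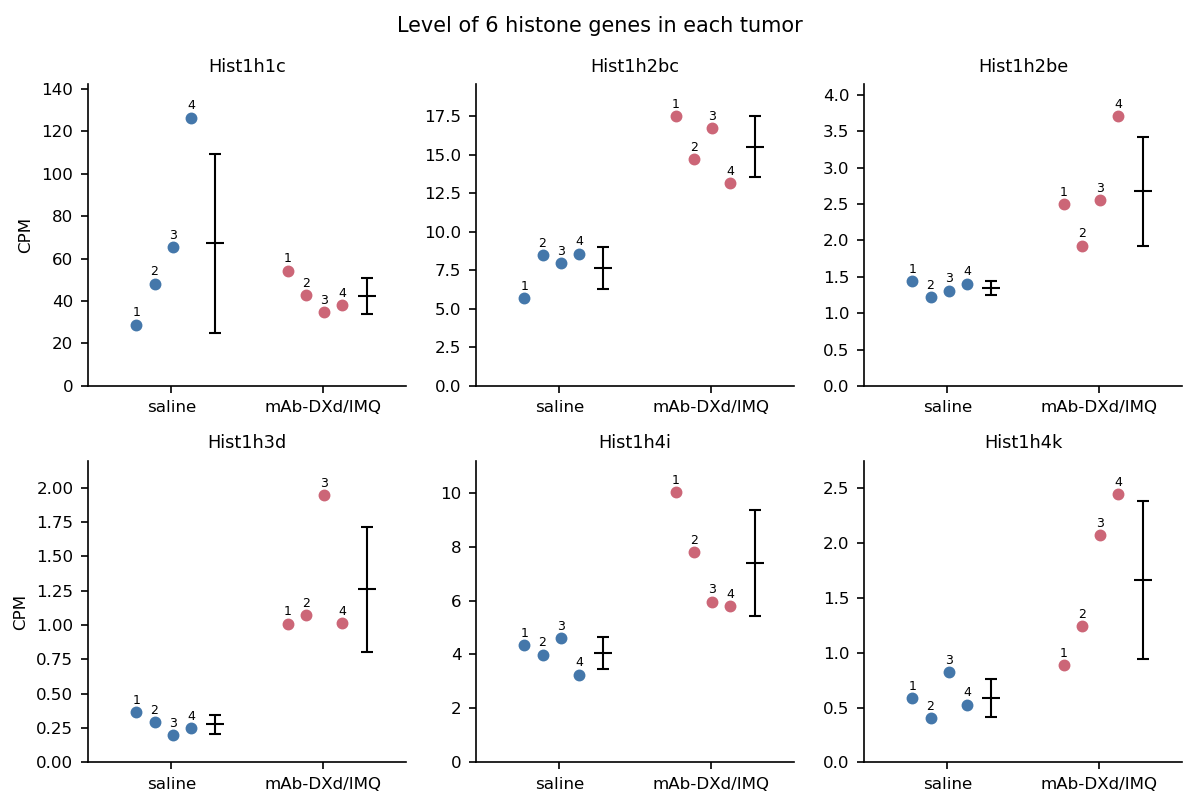
TMM-scaled CPM (vertical axes, each with its own scale from 0) of 6 histone genes, 1 point per tumor with its replicate number and the mean ± SD of each group (n = 4). Groups are apart for Hist1h2bc, Hist1h2be, Hist1h3d, Hist1h4i and Hist1h4k, and Hist1h1c spans 29.0 to 126 CPM in saline tumors.

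Histone genes of one type share long stretches of sequence, and how reads matching several genes were counted is not given in the sources used here. For each member, the share of 100-base windows that occur in no other gene's transcript was taken as a measure of how well reads can be assigned. It was 94.9% for Hist1h1c and 100% for Hist2h2be and Hist2h4. It was 74.6% for Hist1h2bc, 79.6% for Hist1h3d, 84.9% for Hist1h4i, 87.9% for Hist1h2be, 69.3% for Hist1h2ae, 35.7% for Hist1h4k and 31.4% for Hist1h3i. The 13 members with at least 90% of windows to themselves summed to a log2 ratio of -0.57, and -0.14 without saline tumor 4, with Hist1h1c as 81.8% of the sum. Without Hist1h1c, these 12 summed to 9.47, 11.4, 14.98 and 16.2 CPM in saline tumors and 9.24, 11.8, 10.7 and 14.1 in treated ones. The groups overlapped and the log2 ratio was -0.18, with -0.31 to -0.06 when each tumor in turn was left out. The 54 members with under 90% summed to 20.2, 23.6, 26.9 and 28.5 CPM in saline tumors and 47.9, 39.7, 40.5 and 44.5 in treated ones. Here the groups were apart, at a log2 ratio of 0.80, with 0.71 to 0.87 when each tumor in turn was left out. Among tested members with at least 90%, 6 of 10 had a log2 fold change above 0 (median 0.18). Of those with less, 24 of 25 did (median 0.77). The 7 members that reached the low-count filter's level in all treated but not all saline tumors all have under 90%, and all 7 are above 0. The contrast between these medians therefore also carries the lean of the filter, whose part was not tested. The limit of 90% does not part members with and without sister genes, since Hist1h1c and others above it share some windows and Hist1h2bc, below it, has most to itself. The part of read assignment in the result was not tested.

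**Figure D4:**
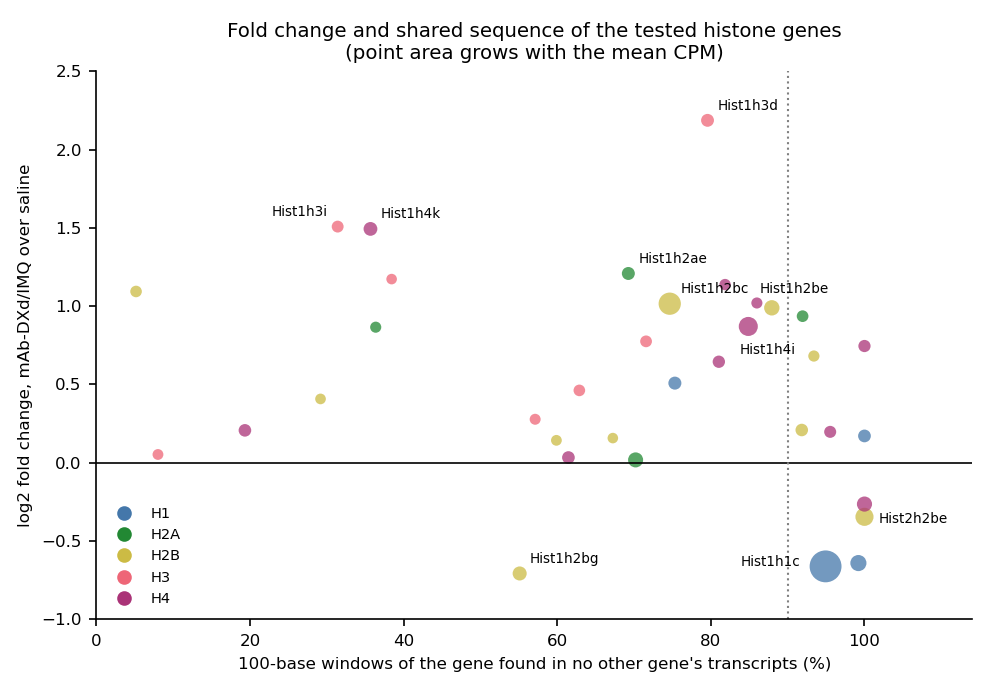
Log2 fold change (vertical axis, mAb-DXd/IMQ over saline) of the 35 tested members against the percentage of their 100-base windows found in no other gene's transcripts (horizontal axis), colored by type, with point area growing with mean CPM. To the right of the dotted line at 90%, 6 of 10 members are above 0, and to its left 24 of 25 are. The 7 members that reached the low-count filter's level in all treated but not all saline tumors all lie to its left, above 0.

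Transcript length and the kind of 3' end were set beside the result in the same way. The tested histone genes had a median length of 774 bases, against 3516 for all tested genes, and across tested genes the log2 fold change fell with length (Spearman's rho = -0.21, genes not being independent replicates). After a correction of each tumor for gene length, rho was -0.034, the histone median was 0.40 and 1 member, Hist1h3d, passed the thresholds. The 18 tested members annotated at least 100 bases past the stem-loop had a median log2 fold change of 0.58, the 10 with a shorter annotated end had 0.43, and the 3 that were searched without finding one had 1.02. For 4 others, Hist1h1b, Hist1h3h, Hist1h3i and Hist1h4k, the annotation ends at the stop codon, so nothing could be searched, and their median was 0.83. Hist1h3h was named after its values were seen. Each of these classes holds some of the 7 members that reached the low-count filter's level in all treated but not all saline tumors. Their medians therefore carry the lean of the filter, and the order of the medians is not read as a result. RNA genes that as a rule lack a poly(A) tail gave little signal, since 9 of 14, among them Rmrp and Rpph1, were at 0 in all tumors. Their sum was 3.83, 3.88, 4.41 and 3.35 CPM in saline tumors and 2.19, 4.28, 1.86 and 4.81 in treated ones, with overlapping groups and Rn7sk, the RNA of the 7SK particle, as the most abundant gene. Mitochondrial ribosomal RNA summed to 661 ± 243 CPM in saline tumors and 518 ± 107 CPM in treated tumors (SD, n = 4), and snRNA, snoRNA and scaRNA genes to 89.0 ± 3.33 and 105 ± 35.01 CPM. Whether carry-over of RNA without tails differed between tumors was not tested further.

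Replacement histone genes, most of which are transcribed through the cell cycle into mRNAs with poly(A) tails, gave 0 of 11 genes past the thresholds in edgeR, 7 above 0 and a median log2 fold change of 0.07. At an unadjusted p under 0.05, 1 of them was higher and 0 lower. H3f3b, a gene for H3.3 and the most abundant of the list, averaged 1333 ± 240 CPM with saline and 1113 ± 336 CPM with mAb-DXd/IMQ (SD, n = 4), a log2 fold change of -0.26 (standard error 0.22, edgeR adjusted p = 0.560). H3f3a had -0.36, H1f0 (the linker histone of resting cells) -0.19, H2afx (the variant phosphorylated at DNA breaks, known to give both a stem-loop and a poly(A) mRNA) 0.27 and H2afz 0.12 on the log2 scale, with edgeR adjusted p between 0.287 and 0.752. Cenpa, the H3 variant of centromeres, was at 166, 99.8, 160 and 126 CPM in saline tumors and 171, 175, 191 and 218 in treated ones. Its groups were apart, with a log2 fold change of 0.45 (standard error 0.16, edgeR adjusted p = 0.167).

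Of 19 genes for the synthesis and processing of histone mRNA, 0 passed in edgeR (2 higher and 1 lower at an unadjusted p under 0.05), and the median log2 fold change was 0.04. Slbp, the stem-loop binding protein, had 70.4, 65.0, 69.0 and 59.9 CPM in saline tumors and 90.1, 74.5, 78.4 and 68.8 in treated ones. The groups overlapped, with a log2 fold change of 0.24 (standard error 0.11, edgeR adjusted p = 0.272). Log2 fold changes were -0.01 for Npat, 0.12 for Casp8ap2 and 0.07 for Hinfp (edgeR adjusted p from 0.675 to 0.986). The sign of Npat turned under 9 of 20 alternatives and that of Hinfp under 1. Pou2f1, which binds the octamer and was named after its values were seen, had -0.36 (edgeR adjusted p = 0.280). In the U7 particle that cuts the 3' end, Lsm10 had 0.01, with a sign that turned under 7 of 20 alternatives, and Lsm11 had 0.26. Zfp473, which binds that particle, had 0.65 (standard error 0.36, edgeR adjusted p = 0.364), and Eri1, an exonuclease that trims and degrades histone mRNA, had -0.12. The smallest p of the list was that of Cstf2, a subunit of the cleavage stimulation factor, which averaged 66.1 ± 4.20 CPM with saline and 50.8 ± 7.26 CPM with mAb-DXd/IMQ (SD, n = 4; log2 fold change -0.38, standard error 0.12, edgeR adjusted p = 0.122).

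Of 18 histone chaperones and import factors, 15 were above 0 and 0 passed in edgeR (2 higher and 0 lower at an unadjusted p under 0.05), with a median log2 fold change of 0.12. Nasp, a chaperone that holds a reserve of soluble H3 and H4, had 49.6, 45.7, 52.1 and 46.9 CPM in saline tumors and 82.6, 60.4, 77.4 and 64.4 in treated ones. Its groups were apart, and the log2 fold change of 0.55 (standard error 0.12, edgeR adjusted p = 0.0519) lay just short of both thresholds. Asf1b and Chaf1b, which deliver H3 and H4 behind the replication fork, had 0.31 and 0.27 (edgeR adjusted p = 0.272 and 0.279).

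Genes of DNA replication and S phase, the time when these histones are made, had a median log2 fold change of 0.16, with 35 of 42 above 0 and 0 past the thresholds in edgeR (8 higher and 1 lower at an unadjusted p under 0.05). Mcm10, which starts replication forks, had the smallest p, with 31.7, 23.2, 30.4 and 23.3 CPM in saline tumors and 45.5, 37.7, 56.0 and 38.6 in treated ones. The groups were apart, with a log2 fold change of 0.71 (standard error 0.16, edgeR adjusted p = 0.0552). The log2 fold changes of Pcna, Mcm2, Rrm2, E2f1 and Cdk2 lay between -0.06 and 0.07, and the sign of each turned under at least 1 alternative. The cyclin E genes Ccne1 and Ccne2 had 0.38 and 0.15 (edgeR adjusted p = 0.351 and 0.711). For mitosis genes, 18 of 18 were above 0 with a median of 0.36, and 0 passed in edgeR (11 higher and 0 lower at an unadjusted p under 0.05). Mki67 and Top2a had 0.22 and 0.27 (edgeR adjusted p = 0.461 and 0.364), and Bub1, of the spindle checkpoint, had 0.63 (standard error 0.14, edgeR adjusted p = 0.0580). The histone median of 0.51 was above the medians of these lists, but it was 0.18 for members with at least 90% of windows to themselves, -0.25 with the filter of 1 CPM and 0.24 for the 28 members outside the 7 that reached the first filter's level in all treated but not all saline tumors, all below the mitosis median of 0.36. Differences between lists were not tested.

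**Figure D5:**
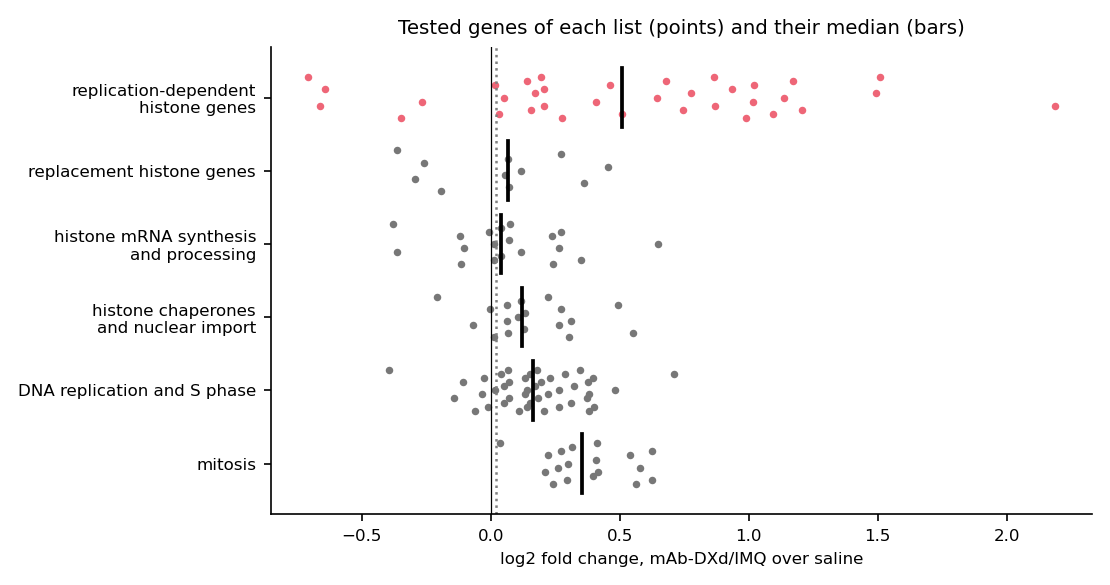
Log2 fold change (horizontal axis, mAb-DXd/IMQ over saline) of each tested gene (points) of the histone genes and of 5 related gene lists, with the median of each list as a bar and the median of all tested genes as a dotted line. Medians are 0.51 for the replication-dependent histone genes, 0.07 for replacement histones, 0.04 for synthesis and processing, 0.12 for chaperones, 0.16 for S phase and 0.36 for mitosis.

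The 7 epithelial markers chosen for 4T1 cells, which host epithelium can also express, summed to 2744, 1922, 2672 and 2329 CPM in saline tumors and 3616, 2782, 2306 and 2225 in treated ones, with Krt18 as the most abundant, none at 0 and overlapping groups. Of these, 7 of 7 had a log2 fold change above 0 (median 0.29) and 0 passed in edgeR (1 higher and 0 lower at an unadjusted p under 0.05). Leukocyte markers summed to 529, 1023, 640 and 759 CPM in saline tumors and 507, 448, 607 and 423 in treated ones. The groups overlapped, and Csf1r was the most abundant. Of the 11 tested leukocyte markers, 11 had a log2 fold change below 0 and 0 passed in edgeR (5 lower and 0 higher at an unadjusted p under 0.05), and S100a8 had -1.74 (standard error 0.38, edgeR adjusted p = 0.0521). Endothelial markers had log2 ratios of summed CPM of 0.35, keratinocyte markers of 1.12, erythroid markers of 0.75, fibroblast markers of -0.01, skeletal muscle markers of -0.32 and adipocyte markers of -0.11, each with overlapping groups and no marker at 0 in all tumors. The part of the cell mixture in the histone values was not tested.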

How the data were processed

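RNA of 8 tumors, 4 per group, was sequenced as bulk poly-T selected libraries. The authors deposited raw counts for each gene, without normalization, and gave the length and coordinates of each. The submitters' processing notes name HISAT2, HISAT, TopHat2 and the build mm39, whereas 53585 of 54495 genes had the same start and end as in GENCODE M21, which is GRCm38. The counting program and the strandedness are not given in the sources used here.

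Genes were kept by filterByExpr of edgeR 4.0.16 (R 4.3.3; minimum count 10, minimum total 15), scaled by TMM, and compared by the quasi-likelihood F-test without covariates over all tested genes, with limits taken from the study (FDR 0.05, absolute log2 fold change 0.58). Each standard error is the absolute coefficient divided by the square root of its F value. CPM were scaled by TMM, and floors of 3 counts cover counting error only. Sequences were read with Biopython 1.88 and figures drawn with matplotlib 3.10.9. No 2 libraries of a group were alike to within sampling noise. The model fits and the length correction were tested on simulated counts of genes past the filter. The filter, the sums and the sequence searches were not tested in that way.

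The members and gene lists were chosen with earlier results of these data known. Named genes were the 2 members of each type with the highest CPM per kb, members past the thresholds, the 5 members with the smallest p in each direction, 28 fixed genes, and the gene with the smallest p in each other list. The symbols Zcchc11 and Zcchc6 matched no gene. Alternatives were 3 other scalings, 2 other filters, DESeq2 1.42.0, limma 3.58.1 (voom and trend), no fold limit, a correction for gene length (a spline with 5 degrees of freedom per tumor), a replicate block, other sums, and leaving out each tumor. The newer quasi-likelihood method of edgeR and the sums over members grouped by shared windows, also with each tumor left out, were chosen after seeing the data.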

Additional observations from a re-analysis of the deposited data

Results flagged for a closer look

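In 166 groups of 4 tumors, the gap from the highest or lowest tumor to its nearest neighbor was set against the whole range of the group. The share passed the critical value of Dixon's test in 11 groups, and chance flags about 1 in 20 groups, or 8.3 of 166. For Hist1h3d, treated tumor 3 had 1.94 CPM and the others 1.01 to 1.07 (a share of 0.936). For the summed H4 genes, saline tumor 3 had 10.9 CPM and the others 9.55 to 9.61 (0.955), and for Hist1h3g it had 0.520 CPM against 0.264 to 0.307 (0.8295). For Hist3h2a, treated tumor 3 was the lowest, at 1.42 CPM against 1.90 to 1.95 (0.904), and for Hist1h1d treated tumor 2 was the lowest, at 1.58 CPM against 2.10 to 2.16 (0.899). Saline tumor 2 was the lowest for Hist2h4, at 1.49 CPM against 2.17 to 2.24 (0.906), and for Asf1b, at 25.8 CPM against 32.2 to 32.9 (0.905). Saline tumor 3 was the highest for Hinfp, at 33.8 CPM against 28.8 to 29.1 (0.925), and for H2afx, at 54.0 CPM against 42.1 to 42.9 (0.936). Saline tumor 1 was the highest for snRNA, snoRNA and scaRNA genes, at 93.9 CPM against 87.0 to 87.7 (0.900). For Terc, the RNA of telomerase, treated tumor 4 had 1.12 CPM against 0.175 to 0.300 (0.868).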

How the results depend on the processing

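Across all genes, 197 passed the thresholds (101 higher, 96 lower). DESeq2 gave 787, no filter on low counts 358, the newer quasi-likelihood method 291 and the correction for gene length 122. Upper quartile scaling gave 218, split as 145 higher and 73 lower, against 101 and 96 with TMM. Leaving out 1 tumor gave 10 to 202. A replicate block gave 14, and the same block with the length correction 14. Replicate numbers were not found to pair tumors, since deviations of saline and treated tumors with the same number correlated at -0.17, -0.055, 0.079 and -0.067.

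Of the histone genes, 2 passed. The filter of 1 CPM in 4 tumors left 1, the length correction 1, DESeq2 5, and leaving out 1 tumor 0 to 2. With the replicate block 0 passed, also after the length correction (0). The other settings left 2.

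The median log2 fold change of the histone genes, 0.51, turned to -0.25 with the filter of 1 CPM, which keeps 9 members and drops the low ones. Leaving out 1 tumor gave 0.34 to 0.73, the highest without treated tumor 3.

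The summed level, -0.11, turned to 0.31 as a mean of log2 CPM and to 0.53 without Hist1h1c. Leaving out 1 tumor gave -0.31 to 0.23, the only turn being that without saline tumor 4. Other scalings gave -0.12 to -0.07.

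Hist1h2bc kept a log2 fold change of 0.90 to 1.09 when 1 tumor was left out, and Hist1h3d 1.90 to 2.35. Hist1h2bc did not pass with the length correction (0.90, adjusted p = 0.0695, edgeR), nor with the replicate block (1.02, 0.106) or the block with length correction (0.90, 0.169). Hist1h3d did not pass with the replicate block (2.14, 0.113) or the block with length correction (2.02, 0.144). The cause was not tested. Nasp passed in 2 of 20 alternatives, Mcm10 in 5, Bub1 in 4 and S100a8 in 6, and Hist1h2be, Hist1h4i and Hist1h4k in 1 each, DESeq2.

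Signs turned in 46 of 1072 values, in 13 of 54 named genes. Hist1h1b turned with limma-voom (-0.18), limma-trend (-0.073), the replicate block (-0.064) and the block with length correction (-0.19), and ranged from -0.33 to 0.45 when 1 tumor was left out. Hist3h2a turned with length correction (-0.090), the block with length correction (-0.053) and the newer method (-0.0086), range -0.15 to 0.20. Hist1h2bg ranged from -1.003 to 0.22. Npat turned with upper quartile scaling (0.044), library size alone (0.029), the filter of 1 CPM (0.0030), length correction (0.020) and the block with length correction (0.018), range -0.059 to 0.058. Lsm10 turned with limma-trend (-0.0095), the replicate block (-0.0093), length correction (-0.10) and the block with length correction (-0.14), range -0.15 to 0.097.

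Rrm2 turned with length correction (-0.037) and the block with length correction (-0.043), range -0.038 to 0.13. Cdk2 turned with upper quartile scaling (0.025) and library size alone (0.012), range -0.081 to 0.043. The block with length correction turned E2f1 (-0.0013) and H2afz (-0.0090), and Cidec turned with limma-voom (0.31) and limma-trend (0.088). Leaving out 1 tumor gave Hinfp -0.011 to 0.19, Pcna -0.20 to 0.014 and Mcm2 -0.022 to 0.17.

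With 4 tumors per group, bulk RNA and many shared sequences, these values describe the tumors sequenced. Neither the fraction of tumor cells nor the form of the histone mRNA was measured.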
